A study of Mus musculus with 3 samples.

Results

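The potassium, calcium, transient receptor potential (TRP) and chloride channel genes were described in 3 immune populations sorted from the intestinal epithelium of RAG-2 null mice. Members were the protein-coding genes whose symbols begin with Kcn, Cacn, Clcn or Orai, with Trpc, Trpm or Trpv followed by a number, or are Stim1 or Stim2. Of 157 such genes in the annotation, 156 had an ID among the 37224 gene IDs of the count files, of which 21131 were protein-coding. Trpc2 was not analysed here. The rule uses names only, so it also takes Trpc4ap and Trpc5os, which are not channels, and subunits that carry no current of their own.

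The iCD8a population was CD45+ and CD8alpha+, the ILC1 population (group 1 innate lymphoid cells) was NKp46+ and NK1.1+, and the CD11b+ population (myeloid cells) was CD45+, CD8alpha- and CD11b+. All 3 carried the same RAG-2 null genotype, which removes a recombinase subunit that T and B cells need for their antigen receptors, and no wild-type library was compared. With 1 library for each population, differences have no replicate check and no p-value was computed. The labels do not give the number of mice behind a library or whether mice were pooled. Gene counts came to 21678113 in the iCD8a library, 22181660 in ILC1 and 30511296 in CD11b+. Rag2 had 0 counts in each library. The sorted markers followed the labels for Cd8a (2636 CPM in iCD8a, 4.41 CPM in ILC1, 28.3 CPM in CD11b+) and for Ncr1, which encodes NKp46 (1.44 CPM in iCD8a, 396 CPM in ILC1, 2.23 CPM in CD11b+). Klrb1c, which encodes NK1.1, was at 207 CPM in iCD8a cells, 546 in ILC1 and 14.7 in CD11b+ cells. Itgam, which encodes CD11b, was at 362 CPM in iCD8a, 187 in the ILC1 library and 845 in CD11b+, so transcripts of both were also present in iCD8a.

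Ion channels set the membrane potential and control how much calcium enters a cell. In lymphocytes, Stim proteins sense the loss of calcium from the endoplasmic reticulum and open Orai pores in the plasma membrane, while potassium channels such as those of Kcna3 and Kcnn4 keep the membrane negative so that calcium entry can continue. In macrophages, potassium efflux is a trigger of the NLRP3 inflammasome, several TRP channels respond to oxidants, heat or swelling, and CLC exchangers serve the endosomes and lysosomes.

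Levels are CPM, a gene's counts scaled to its library's total and to TMM factors. Levels of different genes are compared as CPM per kilobase of annotated exon, and shares of a family's counts are not corrected for gene length. The range after a ratio is its 95% exact interval, which covers counting error only. A gene was called apart between 2 libraries when its ratio reached 4-fold, the near end of its interval reached 2-fold, and the higher of the 2 levels reached 5 CPM. A gene was called enriched in a population when it was apart from both others. In sorted bulk samples, fewer cells of a type and less RNA per cell cannot be told apart.

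The channel genes fell into 2 kinds of pattern. The CLC chloride transporters, the Orai and Stim genes, Trpm7, Kcna3 and Kcnab2 were present in all 3 libraries within a 4-fold range. By contrast, of the 22 potassium and calcium channel genes that reached 5 CPM, 20 were apart in at least 1 pair. Most of the 22 passed that minimum in a single library, for example Kcnd1, Kcne3 and Kcnq5. The genes of the first kind passed it in every library. The minimum thus favours unequal genes among the 22, and the count of 20 may partly follow from it. The share of all protein-coding genes apart in at least 1 pair was not counted. In each single pair most protein-coding genes were not apart, so a lack of difference is not particular to the first kind. Of the 156 members, 39 reached 5 CPM in at least 1 library, 18 reached 1 but not 5 CPM, 65 had counts but stayed under 1 CPM, and 34 had no count in any library. Members took 0.128% of gene counts in iCD8a cells, 0.152% in ILC1 and 0.129% in CD11b+ cells. Of the 39, 5 had their highest level in iCD8a, 14 in the ILC1 library and 20 in CD11b+.

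Enriched in iCD8a were 3 of the 39, the calcium channel pore gene Cacna1e and the potassium channel genes Kcng3 and Kcnh2. That is 7.69%, beside 1.46% of all protein-coding genes at the same minimum. Enriched in ILC1 were also 3, the potassium channel genes Kcnc1 and Kcnq5 and the accessory gene Kcnip2, again 7.69%, beside 1.62% of all genes. Enriched in CD11b+ were 11, or 28.2%, beside 10.1% of all genes. These were the calcium channel genes Cacna1s, Cacnb1 and Cacnb3, the potassium channel genes Kcnd1, Kcne3, Kcnip3, Kcnj10, Kcnk6 and Kcnk13, and the TRP channel genes Trpm2 and Trpv4. Kcnip3 was the 1 member apart in all 3 pairs. Members lower in iCD8a than in both others were Cacng8, Kcnip3 and Trpv2. No member was lower in ILC1 than in both others or lower in CD11b+ than in both others. The shares of all protein-coding genes lower than in both others were not counted, so these numbers have no background beside them.

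**Figure D1:**
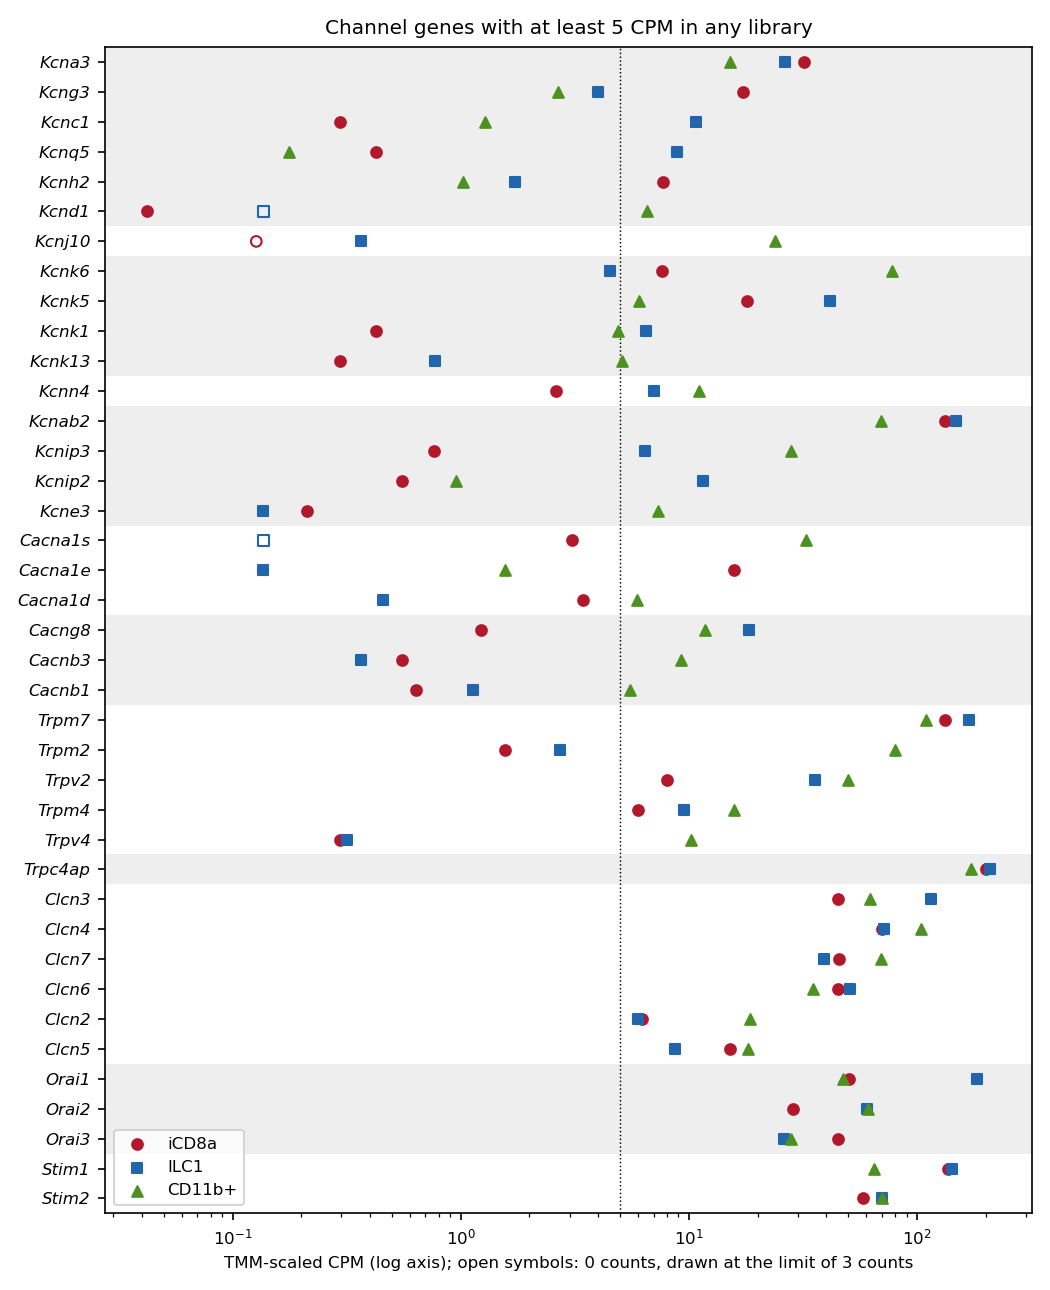
TMM-scaled CPM on a log axis for the 39 channel genes that reached 5 CPM (dotted line) in any library, 1 symbol per library and shading by family; open symbols are genes with 0 counts, drawn at the limit of 3 counts. Symbols lie close together for the CLC, Orai and Stim genes and far apart for most potassium and calcium channel genes, for example Cacna1e at 15.7 CPM in iCD8a cells, 0.136 in ILC1 and 1.56 in CD11b+ cells.

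Pair by pair, 29 members reached 5 CPM in iCD8a or ILC1. Of these, 3 were higher in iCD8a (10.3%, beside 3.51% of all protein-coding genes), 7 were lower in iCD8a (24.1%, beside 4.74%) and 19 were not apart. Between iCD8a and CD11b+, 35 members reached the minimum. There, 3 were higher in iCD8a (8.57%, beside 5.72%), 14 were lower in iCD8a (40.0%, beside 13.2%) and 18 were not apart. Between ILC1 and CD11b+, 36 members reached it. There, 4 were higher in ILC1 (11.1%, beside 5.66%), 12 were lower in ILC1 (33.3%, beside 12.9%) and 20 were not apart. Over the 57 members that reached 1 CPM, the median log2 ratio of iCD8a over ILC1 was -0.17, beside 0.06 over all 12621 such protein-coding genes. The median of iCD8a over CD11b+ was -0.79, beside 0.04 over all genes. The median of ILC1 over CD11b+ was -0.53, beside -0.03 over all genes. The 3 pairs share libraries, so these counts are not independent of each other.

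**Figure D2:**
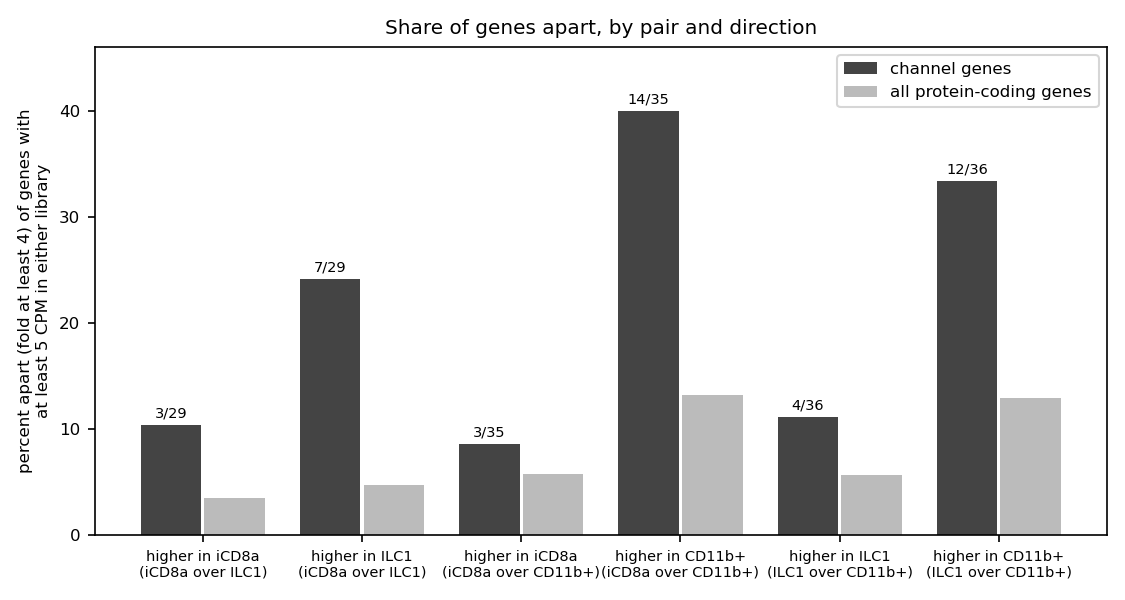
Percent of genes apart by pair and direction, among genes with at least 5 CPM in either library of the pair, for the channel genes (dark bars, with counts) and all protein-coding genes (light bars). The tallest bars are the channel genes higher in CD11b+, 14 of 35 beside iCD8a and 12 of 36 beside ILC1. At this 4-fold limit the dark bar stands over the light one in all 6 cases.

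Promoter sequence was available for 121 of the 156 members (RefSeq, GRCm38.p6), and the 250 bases before each start were searched on both strands for short motifs of factors known in these lineages. GAGGAA, the core recognised by the myeloid factor PU.1, stood in 24.8% of members and in 25.3% of 16177 protein-coding genes. TGTGGT, a RUNX core, stood in 15.7% of members and 14% of all genes, and GGTGTGA, a T-box core, in 8.26% of members and 3.72% of all genes. TGANTCA, an AP-1 site, stood in 4.96% of members and 7.15% of all genes, and TATAAA in 8.26% of members and 13% of all genes. None of these shares is a test, and a match is a description of letters, not a bound site. Of the 17 enriched members, 10 had a single start in the table, and 5 of these had a match. To show where such a match lies, 1 of them per population is printed, 60 bases each on the gene's strand with the match in capitals. Each is the only match of the 5 motifs within its 250 bases. Cacna1e is at chr1:154726088-154726147 on the minus strand, with the PU.1 core 200 to 195 bases before the start. Kcnc1 is at chr7:46396218-46396277 on the plus strand, with the T-box core 240 to 234 bases before the start, a RefSeq start that matched no GENCODE transcript of the gene. Kcnk13 is at chr12:99964439-99964498 on the plus strand, with the PU.1 core 30 to 25 bases before the start.
Cacna1e: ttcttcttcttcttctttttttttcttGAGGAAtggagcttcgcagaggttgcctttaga
Kcnc1: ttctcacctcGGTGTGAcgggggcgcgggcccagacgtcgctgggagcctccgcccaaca
Kcnk13: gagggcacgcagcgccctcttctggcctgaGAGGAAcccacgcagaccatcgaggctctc
The same PU.1 core thus stood before Cacna1e, enriched in iCD8a, and before Kcnk13, enriched in CD11b+. Among all enriched members with a promoter it was found in 1 of 3 for iCD8a, 1 of 3 for ILC1 and 2 of 9 for CD11b+. The T-box core was found in 0 of 3 for iCD8a, 1 of 3 for ILC1 (Kcnc1) and 1 of 9 for CD11b+ (Trpv4).

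Among voltage-gated potassium subunit genes, Kcna3 was shared by all 3 libraries, while Kcng3 and Kcnh2 were enriched in iCD8a, Kcnc1 and Kcnq5 in ILC1, and Kcnd1 in CD11b+. Kcna3, the main voltage-gated potassium channel of T cells, was at 32.0 CPM in iCD8a, 26.4 in the ILC1 library and 15.2 in CD11b+. It was not apart in any pair, and per kilobase of exon it was among the 5 most abundant members in iCD8a (16.8 CPM per kilobase) and in ILC1 (13.9). Kcna3 alone made up 49.0% of the counts of voltage-gated potassium genes in iCD8a cells, 44.0% in ILC1 and 35.4% in CD11b+ cells.

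Kcng3, which encodes a subunit that forms no channel alone, was at 17.3 CPM in iCD8a, 3.999 in the ILC1 library and 2.66 in CD11b+. It was 4.33-fold higher in iCD8a than in ILC1 (3.43 to 5.51) and 6.51-fold higher than in CD11b+ (5.08 to 8.44). Kcnh2, whose product (hERG) repolarises heart muscle, was at 7.70 CPM in iCD8a cells, 1.73 in ILC1 and 1.03 in CD11b+ cells. Its level in iCD8a was 4.46-fold that in ILC1 (3.13 to 6.51) and 7.49-fold that in CD11b+ (5.04 to 11.5).

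The ILC1 library stood out for Kcnc1 and Kcnq5. Kcnc1, a fast-closing channel best known from rapidly firing neurons, was at 0.296 CPM in iCD8a, 10.8 in the ILC1 library and 1.28 in CD11b+. It was 36.4-fold lower in iCD8a than in ILC1 (17.4 to 91.4) and 8.44-fold higher in ILC1 than in CD11b+ (5.93 to 12.3). Kcnq5, which contributes to the slow M-type current of neurons and smooth muscle, was at 0.423 CPM in iCD8a cells, 8.86 in ILC1 and 0.177 in CD11b+ cells. It was 20.9-fold lower in iCD8a than in ILC1 (11.1 to 44.4) and 50.0-fold higher in ILC1 than in CD11b+ (21.1 to 156). Markers of neurons and glia, cells known for both genes, summed to 6.05 CPM in iCD8a, 5.32 in the ILC1 library and 5.57 in CD11b+ over 11 genes. Of these 11, 6 had no count in iCD8a cells, 3 in ILC1 and 3 in CD11b+ cells, and Stmn2 was among those with none in any library.

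Kcnd1, a pore gene of transient A-type currents, had 1 count in iCD8a, 0 in the ILC1 library and 184 in CD11b+, the last being 6.52 CPM. It was 154-fold lower in iCD8a than in CD11b+, with a wide interval (27.3 to 6120.35) since it rests on 1 count, and at least 47.8-fold lower in ILC1 than in CD11b+. The bound for ILC1 takes 3 counts in that library as the limit of a count of 0.

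The 15 inward rectifier genes together summed to 1.73 CPM in iCD8a cells, 3.64 in ILC1 and 33.6 in CD11b+ cells. Kcnj10, which clears potassium around glial and epithelial cells, had 0 counts in iCD8a, 8 in the ILC1 library and 673 in CD11b+, the last being 23.9 CPM. It was at least 188-fold lower in iCD8a than in CD11b+ and 65.6-fold lower in ILC1 than in CD11b+ (33.1 to 153). Kcnj10 alone made up 70.9% of the inward rectifier counts in CD11b+. Its direct neighbour on chromosome 1, Kcnj9, did not reach 5 CPM but had the same shape, with 0 counts in iCD8a cells, 2 in ILC1 and 124 in CD11b+ cells. Another neighbouring pair, Kcnj16 and Kcnj2 on chromosome 11, also had most of its counts in CD11b+. Kcnj16 had 0 counts in iCD8a, 2 in the ILC1 library and 66 in CD11b+, and Kcnj2, the classical strong inward rectifier, had 19 counts in iCD8a cells, 16 in ILC1 and 70 in CD11b+ cells.

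Potassium channels of the Kcnk family carry the background leak that holds a cell at rest, and Kcnk5 and Kcnk6 traded places between libraries. Kcnk5 was at 17.9 CPM in iCD8a, 41.5 in the ILC1 library and 6.03 in CD11b+. Kcnk6, which is known for potassium efflux ahead of inflammasome activation in mouse macrophages, was at 7.66 CPM in iCD8a cells, 4.50 in ILC1 and 78.0 in CD11b+ cells. Kcnk5 was 6.88-fold higher in ILC1 than in CD11b+ (5.84 to 8.16) and was not apart between iCD8a and either other library. Kcnk6 was 10.2-fold lower in iCD8a than in CD11b+ (8.75 to 11.9) and 17.3-fold lower in ILC1 than in CD11b+ (14.2 to 21.4).

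As shares of all counts on this family, Kcnk5 took 65.3% in iCD8a, 75.5% in the ILC1 library and 6.29% in CD11b+. Kcnk6 took 27.9% in iCD8a cells, 8.19% in ILC1 and 81.5% in CD11b+ cells. The order also held per kilobase of exon. Kcnk5 was at 5.26 CPM per kilobase in iCD8a, 12.2 in the ILC1 library and 1.77 in CD11b+, and Kcnk6 at 1.85 in iCD8a cells, 1.08 in ILC1 and 18.8 in CD11b+ cells. Kcnk1 was at 0.423 CPM in iCD8a, 6.498 in the ILC1 library and 4.89 in CD11b+, and was 15.4-fold lower in iCD8a than in ILC1 (8.11 to 32.7). The comparison of iCD8a with CD11b+ fell just under the minimum of 5 CPM, and 8.01% of its exonic bases are shared with other genes. Kcnk13, a halothane-inhibited channel known from microglia, was at 0.296 CPM in iCD8a cells, 0.772 in ILC1 and 5.07 in CD11b+ cells. It was 17.1-fold lower in iCD8a than in CD11b+ (8.09 to 43.3) and 6.56-fold lower in ILC1 than in CD11b+ (3.96 to 11.6). Its level in CD11b+ sits at the 5 CPM minimum, and both calls were lost when CPM were taken by total gene count, with upper-quartile scaling, or in libraries thinned to equal size.

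**Figure D3:**
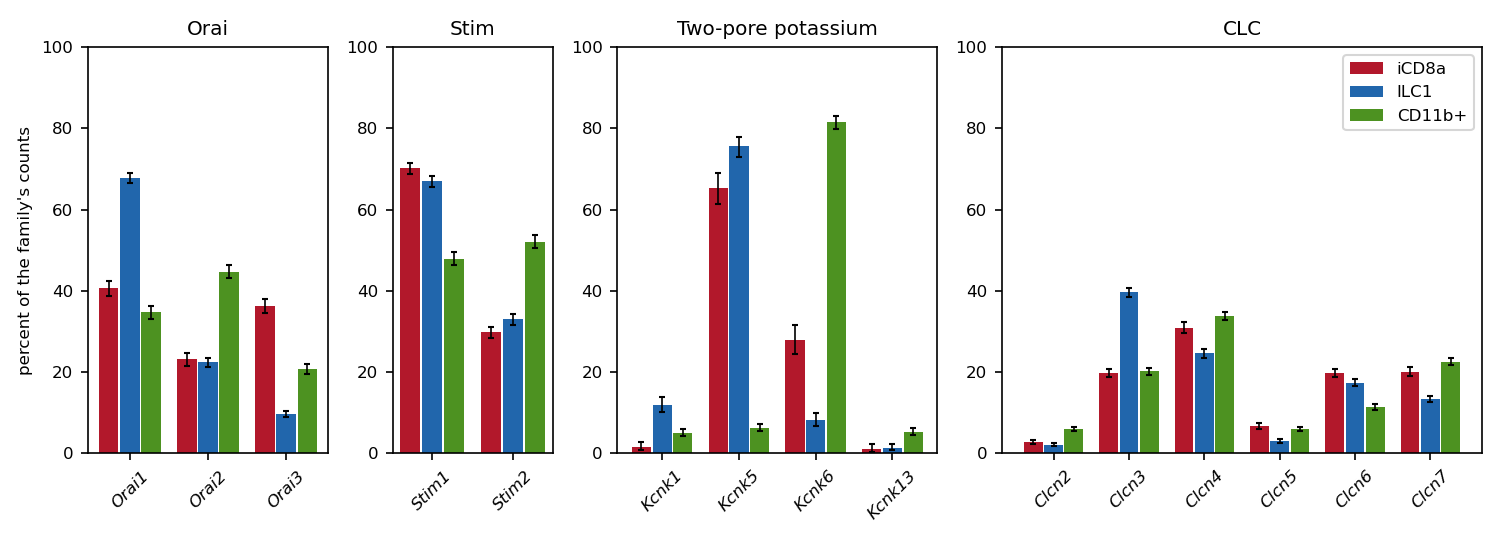
Share of each family's counts taken by its named genes in each library, in percent, with 95% exact binomial intervals (counting error only); genes under 5 CPM in every library are left out of the bars but kept in the totals. Orai1 takes 67.8% of Orai counts in ILC1, and Kcnk6 takes 81.5% of the Kcnk counts in CD11b+. Shares are of counts and are not corrected for gene length.

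Kcnn4, the calcium-activated potassium channel of activated lymphocytes and macrophages, was at 2.62 CPM in iCD8a, 7.04 in the ILC1 library and 11.1 in CD11b+. It was 4.22-fold lower in iCD8a than in CD11b+ (3.20 to 5.63), a call lost when CPM were taken by total gene count, and it was not apart in the other pairs. No other calcium- or sodium-activated potassium gene reached 1 CPM.

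Accessory potassium channel genes included both evenly spread and very unequal members. Kcnab2, which encodes a beta subunit of Kcna channels with an aldo-keto reductase fold, was at 132 CPM in iCD8a cells, 148 in ILC1 and 69.3 in CD11b+ cells. It was not apart in any pair, and per kilobase it was the most abundant member in iCD8a at 23.7 CPM per kilobase. Kcnip2 and Kcnip3 encode calcium-binding proteins that bind Kcnd pores. Kcnip2 was at 0.550 CPM in iCD8a, 11.6 in the ILC1 library and 0.957 in CD11b+, which made it 21.1-fold lower in iCD8a than in ILC1 (12.1 to 40.1) and 12.1-fold higher in ILC1 than in CD11b+ (8.13 to 18.7). In ILC1, where Kcnip2 was highest, Kcnd1, Kcnd2 and Kcnd3 all had 0 counts, each of which allows up to 0.136 CPM.

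Kcnip3, whose product also acts as a calcium-dependent transcriptional repressor (DREAM), was at 0.762 CPM in iCD8a cells, 6.45 in ILC1 and 28.1 in CD11b+ cells. It was 8.47-fold lower in iCD8a than in ILC1 (5.17 to 14.7), 36.9-fold lower in iCD8a than in CD11b+ (23.2 to 62.7) and 4.36-fold lower in ILC1 than in CD11b+ (3.64 to 5.25). Kcne3 encodes a small subunit that pairs with the Kcnq1 pore in intestinal epithelium. It had 5 counts in iCD8a, 3 in the ILC1 library and 207 in CD11b+, the last being 7.34 CPM. It was 34.7-fold lower in iCD8a than in CD11b+ (14.6 to 108) and 53.8-fold lower in ILC1 than in CD11b+ (18.2 to 263). Kcnq1 had 8 counts in iCD8a cells, 7 in ILC1 and 92 in CD11b+ cells, without reaching 5 CPM.

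Markers of intestinal epithelium moved with the CD11b+ library too. All 24 had counts in each library, and they summed to 928 CPM in iCD8a, 548 in the ILC1 library and 2647 in CD11b+. The largest parts of the iCD8a sum came from Cdh1 (359 CPM), Cdh17 (193 CPM) and Epcam (154 CPM). In CD11b+ these were at 208, 72.3 and 180 CPM, so the iCD8a sum rests mostly on genes that do not follow the rest of the list. In the iCD8a and CD11b+ pair, 21 of the 24 were lower in iCD8a, and 22 of 24 were lower in ILC1 than in CD11b+, with list medians (log2) of -3.13 in the first pair and -3.15 in the second. Markers of goblet and Paneth cells summed to 76.3 CPM in iCD8a cells, 106 in ILC1 and 683 in CD11b+ cells, with 8 of 9 lower in iCD8a and 8 of 9 lower in ILC1 than in CD11b+. The part of both lists in the Kcne3 and Kcnq1 values, and in those of other members higher in CD11b+, was not tested.

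**Figure D4:**
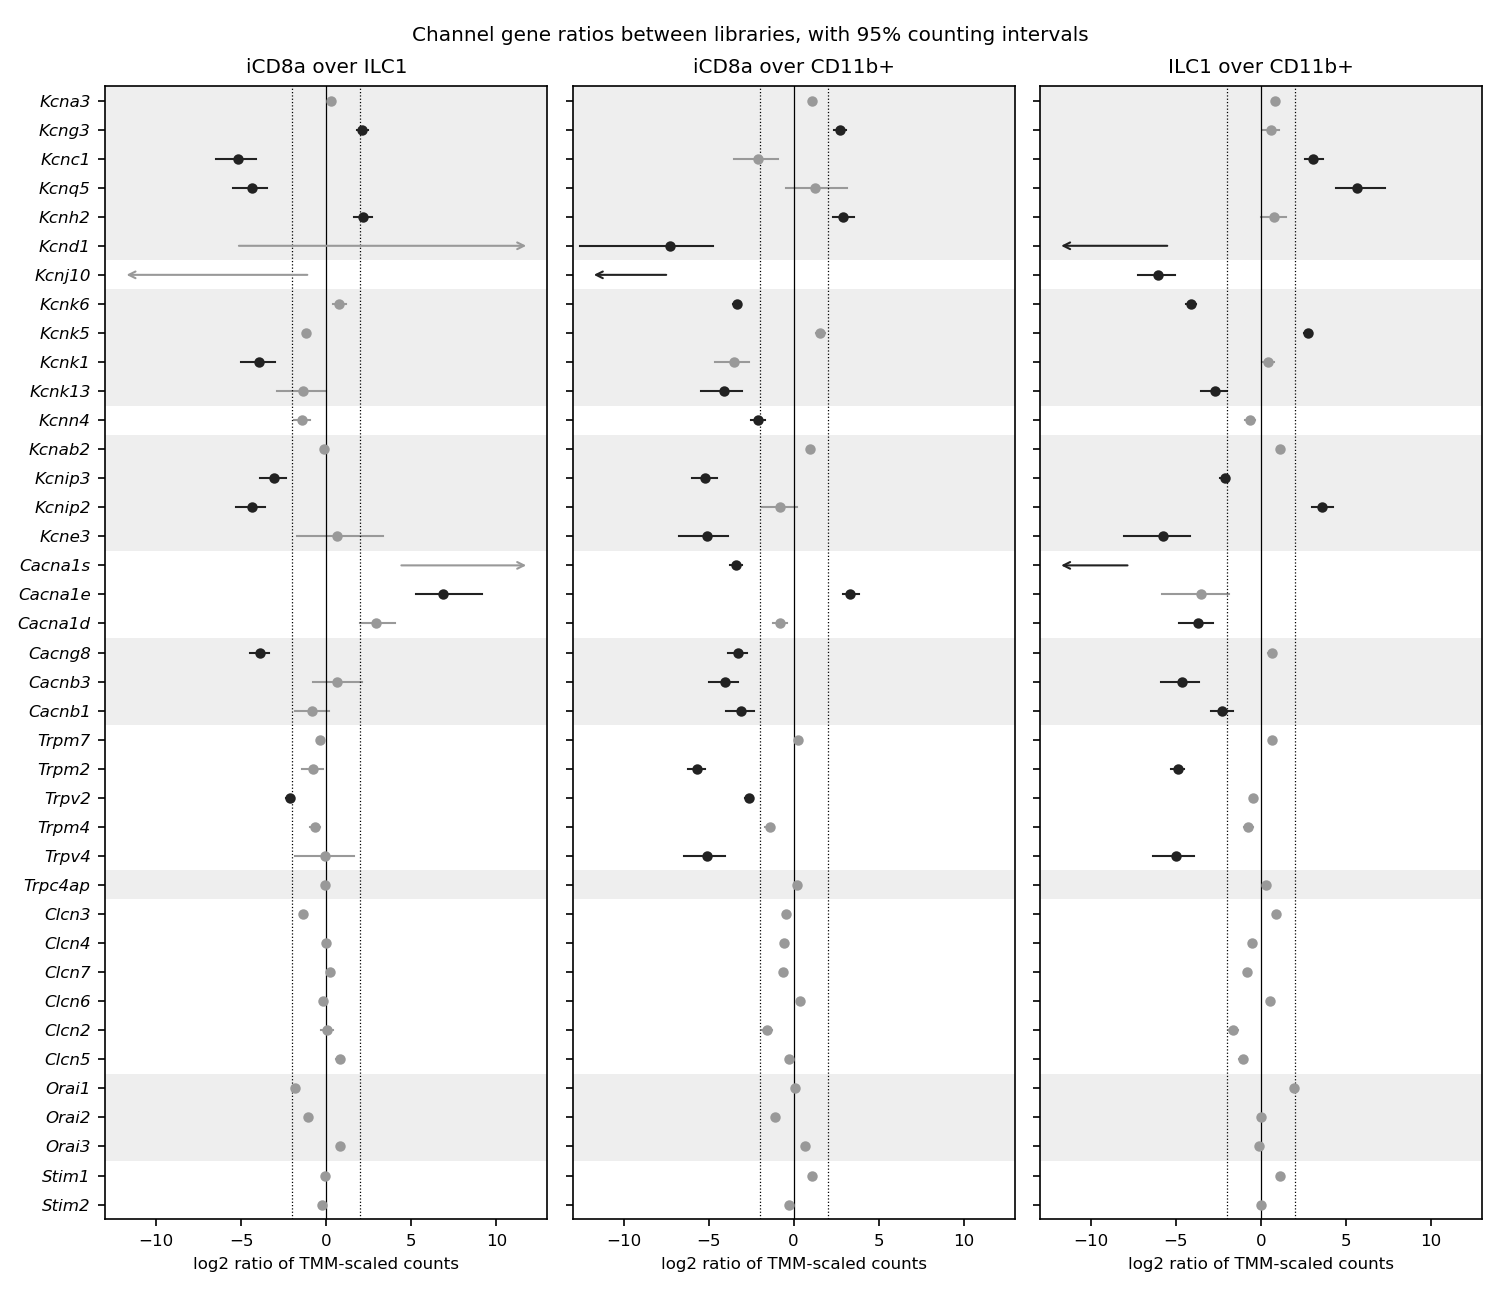
Log2 ratios of TMM-scaled counts for the same 39 genes in the 3 pairs, with 95% exact counting intervals; black points are apart, grey are not, dotted lines mark 4-fold, and arrows are open intervals of genes with 0 counts in 1 library. The black points lie mostly left of 0 in the panels of iCD8a over CD11b+ (14 of 17) and ILC1 over CD11b+ (12 of 16). All protein-coding genes leaned the same way. Of them, 1384 were higher in CD11b+ and 601 in iCD8a in the first of these pairs. In the second, 1347 were higher in CD11b+ and 589 in ILC1.

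Of the 10 voltage-gated calcium pore genes, the highest per kilobase of exon was Cacna1e in iCD8a (0.622 CPM per kilobase), Cacna1a in ILC1 (0.346) and Cacna1s in CD11b+ (4.99). Cacna1e, the pore of R-type channels of neurons and endocrine cells, had 371 counts in iCD8a cells, 3 in ILC1 and 44 in CD11b+ cells, which is 15.7 CPM in iCD8a, 0.136 in the ILC1 library and 1.56 in CD11b+. It was 115-fold higher in iCD8a than in ILC1 (39.1 to 561) and 10.1-fold higher than in CD11b+ (7.35 to 14.1), the widest range among members with counts in all 3 libraries. It held 56.9% of the pore gene counts in iCD8a. Cacna1a, the pore of P/Q-type channels, was nearly level at 4.74 CPM in iCD8a cells, 3.95 in ILC1 and 4.08 in CD11b+ cells, and held 66.9% of the small pore total of 130 counts in ILC1.

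Markers of plasmacytoid dendritic cells were also high in iCD8a, where 5 of 9 were higher than in ILC1 and 6 of 9 higher than in CD11b+. Among them, Siglech was at 224 CPM in iCD8a, 0.954 in the ILC1 library and 12.9 in CD11b+, and Ly6d at 75.7 CPM in iCD8a cells, 0.136 in ILC1 and 3.51 in CD11b+ cells. The 9 markers summed to 1185 CPM in iCD8a, 1287 in the ILC1 library and 396 in CD11b+, where Irf8 alone gave 1183 CPM of the ILC1 sum, and none was at 0 in any library. Of 10 T cell markers, among them the sort marker Cd8a, 6 were higher in iCD8a beside ILC1. Beside CD11b+, 7 of the 10 were higher in iCD8a and 1 was lower. They summed to 6248 CPM in iCD8a cells, 644 in ILC1 and 343 in CD11b+ cells, with none at 0 and list medians (log2) of 5.35 for iCD8a over ILC1 and 4.07 for iCD8a over CD11b+. The part of either list in the values of Cacna1e, Kcng3 and Kcnh2 was not tested.

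Cacna1s, the pore and voltage sensor of skeletal muscle, had 73 counts in iCD8a cells, 0 in ILC1 and 923 in CD11b+ cells, which is 3.09 CPM in iCD8a, 0 in the ILC1 library and 32.7 in CD11b+. It was 10.6-fold lower in iCD8a than in CD11b+ (8.34 to 13.6) and at least 240.002-fold lower in ILC1 than in CD11b+. Its ratio of iCD8a over ILC1 was at least 22.7, without reaching 5 CPM in either. It held 70.6% of the pore gene counts in CD11b+, and 19.98% of its exonic bases are shared with another annotated gene. The muscle release channel that it couples to, Ryr1, followed the same order, with 3.47 CPM in iCD8a cells, 0.591 in ILC1 and 28.5 in CD11b+ cells, and was apart in both pairs with CD11b+. Smooth muscle and stromal markers, 8 genes, summed to 3.13 CPM in iCD8a, 3.41 in the ILC1 library and 6.17 in CD11b+. This list is not one of skeletal muscle, for which no marker list was read.

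The beta subunit genes Cacnb1 and Cacnb3, whose products carry calcium channel pores to the membrane, were enriched in CD11b+ as well. Cacnb1 was at 0.635 CPM in iCD8a cells, 1.14 in ILC1 and 5.49 in CD11b+ cells, and was 8.66-fold lower in iCD8a than in CD11b+ (5.09 to 15.8) and 4.84-fold lower in ILC1 than in CD11b+ (3.16 to 7.70). Cacnb3 was at 0.550 CPM in iCD8a, 0.364 in the ILC1 library and 9.22 in CD11b+. It was 16.8-fold lower in iCD8a than in CD11b+ (9.63 to 31.9) and 25.4-fold lower in ILC1 than in CD11b+ (12.7 to 59.3). The muscle gamma subunit gene Cacng1, by contrast, had no count in any library. Cacna1d, an L-type pore of pacemaker and endocrine cells, was at 3.43 CPM in iCD8a cells, 0.454 in ILC1 and 5.96 in CD11b+ cells. It was 13.1-fold lower in ILC1 than in CD11b+ (6.95 to 27.8), and 4.67% of its exonic bases are shared with other genes.

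Cacng8, despite its name, is best known as an auxiliary subunit of AMPA-type glutamate receptors. It was at 1.23 CPM in iCD8a, 18.4 in the ILC1 library and 11.8 in CD11b+. It was 15.0-fold lower in iCD8a than in ILC1 (10.3 to 22.7) and 9.62-fold lower in iCD8a than in CD11b+ (6.57 to 14.6), and was not apart between ILC1 and CD11b+. Its neighbours on chromosome 7 did not share this shape. Cacng7 had 49 counts in iCD8a cells, 22 in ILC1 and 6 in CD11b+ cells, and Cacng6 had 3 counts in iCD8a, 15 in the ILC1 library and 0 in CD11b+.

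Of the 20 TRP channel genes, 5 reached 5 CPM. Trpm7 and Trpm4 were not apart in any pair, Trpm2 and Trpv4 were enriched in CD11b+, and Trpv2 was lower in iCD8a than in both others. Trpm7, a magnesium-permeable channel fused to a kinase, was at 133 CPM in iCD8a cells, 170 in ILC1 and 110.026 in CD11b+ cells and was not apart in any pair. It took 88.6% of TRP channel counts in iCD8a, 77.3% in the ILC1 library and 40.7% in CD11b+. Per kilobase of exon it stood above Trpv2 in iCD8a (11.7 and 1.79 CPM per kilobase) and in ILC1 (15.0 and 7.97), and below Trpv2 in CD11b+ (9.72 and 11.1). Trpm2, opened by ADP-ribose and oxidants, was at 1.57 CPM in iCD8a cells, 2.73 in ILC1 and 80.4 in CD11b+ cells, where it took 29.8% of TRP channel counts. It was 51.3-fold lower in iCD8a than in CD11b+ (37.1 to 73.1) and 29.5-fold lower in ILC1 than in CD11b+ (22.8 to 38.8).

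Trpv4, which responds to swelling and warmth, was at 0.296 CPM in iCD8a, 0.318 in the ILC1 library and 10.2 in CD11b+. It was 34.6-fold lower in iCD8a than in CD11b+ (16.6 to 86.8) and 32.2-fold lower in ILC1 than in CD11b+ (15.4 to 80.8). Trpv2, a channel that macrophages use in early phagocytosis, was at 8.04 CPM in iCD8a cells, 35.8 in ILC1 and 49.9 in CD11b+ cells. Unlike Trpv4 it was shared by ILC1 and CD11b+, being 4.45-fold lower in iCD8a than in ILC1 (3.79 to 5.24) and 6.20-fold lower in iCD8a than in CD11b+ (5.33 to 7.26). Trpm4, a calcium-activated channel for monovalent cations, was at 5.97 CPM in iCD8a, 9.50 in the ILC1 library and 15.8 in CD11b+ and was not apart. Trpc4ap, an adaptor of an E3 ubiquitin ligase and no channel, was nearly level at 201 CPM in iCD8a cells, 209 in ILC1 and 173 in CD11b+ cells.

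Macrophage and monocyte markers, 10 genes, had the same rank order as Trpv2 and Kcnip3, but were not alone in it. The 10 markers summed to 13.2 CPM in iCD8a, 378 in the ILC1 library and 7624 in CD11b+, with none at 0. Of the 10, 8 were lower in iCD8a than in ILC1, and all 10 were lower in iCD8a and in ILC1 than in CD11b+. The sums of the goblet and Paneth cell, mast cell, eosinophil, neutrophil, and smooth muscle and stroma lists rose in that order as well. The largest marker sum in CD11b+, 28364 CPM, was that of 9 classical dendritic cell genes, beside 1376 for iCD8a and 1232 for ILC1. Of these 9, 6 were lower in iCD8a than in CD11b+ and 1 was higher. Lower in ILC1 than in CD11b+ were 5. The part of any of these cell types in the ILC1 values of Cacng8, Kcnip3 and Trpv2, or in members higher in CD11b+, was not tested.

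The CLC family, chloride channels and chloride-proton exchangers, was present throughout, with 6 of 9 genes at 5 CPM and none apart in any pair. The highest of the 3 levels was between 1.45-fold and 3.08-fold the lowest for each of the 6. Clcn7, the lysosomal exchanger that works with Ostm1, was at 45.7 CPM in iCD8a cells, 39.0 in ILC1 and 69.5 in CD11b+ cells. Clcn3, an endosomal exchanger, was at 44.9 CPM in iCD8a, 116 in the ILC1 library and 62.1 in CD11b+. It took 19.8% of CLC counts in iCD8a cells, 39.6% in ILC1 and 20.2% in CD11b+ cells. Per kilobase of exon it stood below Clcn4, Clcn6 and Clcn7 in each library, with 6.78 CPM per kilobase in ILC1 against 7.37 for Clcn7. The other endosomal members also stayed within the 4-fold limit. Clcn4 was at 70.3 CPM in iCD8a, 71.8 in the ILC1 library and 104 in CD11b+, with 11.5% of its exonic bases shared with other genes. Clcn5 was at 15.1 CPM in iCD8a cells, 8.68 in ILC1 and 18.3 in CD11b+ cells, and Clcn6 at 44.9 CPM in iCD8a, 50.9 in the ILC1 library and 35.1 in CD11b+. Clcn2, a channel of the plasma membrane, was at 6.22 CPM in iCD8a cells, 5.998 in ILC1 and 18.5 in CD11b+ cells. Its ratio of iCD8a over CD11b+ was 0.337 (0.279 to 0.405) and of ILC1 over CD11b+ 0.325 (0.266 to 0.394), short of the limit.

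All 5 genes of store-operated calcium entry were measured, and none was apart. Stim1, the main calcium sensor of the endoplasmic reticulum, was at 137 CPM in iCD8a, 143 in the ILC1 library and 64.6 in CD11b+. Stim2, its more sensitive relative, was at 58.1 CPM in iCD8a cells, 70.4 in ILC1 and 70.1 in CD11b+ cells. Stim1 gave 70.2% of Stim counts in iCD8a (68.8 to 71.5), 67.0% in ILC1 (65.6 to 68.3) and 47.9% in CD11b+ (46.3 to 49.5), so the balance between the sensors differed in CD11b+ by more than counting error. Stim1 is the longer of the pair, and per kilobase of exon Stim1 and Stim2 were at 13.2 and 11.3 CPM per kilobase in iCD8a, 13.8 and 13.7 in ILC1, and 6.23 and 13.7 in CD11b+.

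Orai1, the pore of the lymphocyte calcium current, was at 50.4 CPM in iCD8a, 183 in the ILC1 library and 47.3 in CD11b+. Its ratio of iCD8a over ILC1 was 0.276 (0.259 to 0.295) and of ILC1 over CD11b+ 3.86 (3.63 to 4.11), just short of 4-fold. With CPM by total gene count or upper-quartile scaling, the ILC1 and CD11b+ pair passed it, at log2 ratios of 2.05 and 2.03. Per kilobase of exon, Orai1 was the most abundant of all members in ILC1, at 79.6 CPM per kilobase, and in CD11b+, at 20.6. Orai2 was at 28.7 CPM in iCD8a cells, 60.3 in ILC1 and 60.9 in CD11b+ cells, and Orai3 at 44.98 CPM in iCD8a, 26.2 in the ILC1 library and 28.2 in CD11b+. By counts the mixture of pore genes differed between libraries. Orai1 took 40.6% of Orai counts in iCD8a cells, 67.8% in ILC1 and 34.7% in CD11b+ cells. Orai2 took 23.1% in iCD8a, 22.4% in the ILC1 library and 44.6% in CD11b+, and Orai3 took 36.3% in iCD8a cells, 9.74% in ILC1 and 20.7% in CD11b+ cells. Per kilobase, Orai1 nevertheless stood above Orai2 in CD11b+ (20.6 and 10.02 CPM per kilobase) as in the other libraries.

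The 18 members between 1 and 5 CPM lie under the minimum of the fold rule, and their values stand as description. Kcnj8, the pore of a vascular ATP-sensitive channel, had 1 count in iCD8a cells, 40 in ILC1 and 1 in CD11b+ cells, so that nearly all of its counts were in ILC1. Kcnh3 had 44 counts in iCD8a, 0 in the ILC1 library and 22 in CD11b+, and Kcna7 had 37 counts in iCD8a cells, 42 in ILC1 and 5 in CD11b+ cells. Kcng2, another silent subunit, had counts in CD11b+ alone, 42 of them, which is 1.49 CPM. Kcnh4 had 2 counts in iCD8a, 22 in the ILC1 library and 99 in CD11b+. Trpm5, the taste channel that tuft cells use, had 11 counts in iCD8a cells, 6 in ILC1 and 50 in CD11b+ cells. The 6 tuft cell markers summed to 364 CPM in iCD8a, 81.6 in the ILC1 library and 42.4 in CD11b+, nearly all of it from Avil, while Il25 had no count in any library and Dclk1, Pou2f3 and Gnat3 had at most 9. The remaining marker, Sh2d6, was highest in CD11b+ as Trpm5 was, with 8 counts in iCD8a, 3 in the ILC1 library and 59 in CD11b+. Their part in the Trpm5 values was not tested. The auxiliary calcium channel gene Cacna2d2 had 46 counts in iCD8a cells, 55 in ILC1 and 73 in CD11b+ cells, and Cacnb4 had 12 counts in iCD8a, 4 in the ILC1 library and 34 in CD11b+. Kcnab3, Kcnh7 and Cacna1g had at most 81, 49 and 23 counts in any library. The 65 members with counts under 1 CPM included Trpc1, which came nearest to that level with 10 counts in iCD8a cells, 22 in ILC1 and 9 in CD11b+ cells.

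The partners of these channels were read from lists outside the rule, chosen with earlier results of these data known. Of 22 store-operated entry partners, none was apart between iCD8a and ILC1. In this pair few genes were apart at all, with 3.51% of all protein-coding genes higher in iCD8a and 4.74% lower. Higher in iCD8a than in CD11b+ were 3, namely Cracr2a, a cytosolic regulator of Orai1 (55.4 CPM in iCD8a, 44.9 CPM in ILC1, 7.27 CPM in CD11b+), the endoplasmic reticulum pump Atp2a3 (936 CPM in iCD8a, 700 CPM in ILC1, 221 CPM in CD11b+) and the plasma membrane pump Atp2b4 (85.5 CPM in iCD8a, 228 CPM in ILC1, 21.3 CPM in CD11b+). Lower were Ryr1 and Mcub, an inhibitory subunit of the mitochondrial calcium uniporter, with 0 CPM in iCD8a, 0.545 in the ILC1 library and 26.6 in CD11b+. Between ILC1 and CD11b+, 2 were higher in ILC1 (Cracr2a and Atp2b4) and the same 2 were lower.

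Of 14 calcineurin and NFAT genes, which read the calcium signal, none was apart between iCD8a and ILC1. With 3.51% of all protein-coding genes higher in iCD8a and 4.74% lower in this pair, a list this short says little. The catalytic subunit Ppp3cc was at 246 CPM in iCD8a cells, 252 in ILC1 and 25.6 in CD11b+ cells, and the kinase Camk4 at 30.1 CPM in iCD8a, 26.3 in the ILC1 library and 2.20 in CD11b+, both higher in iCD8a and in ILC1 than in CD11b+. Nfatc3 was higher in ILC1 (433 CPM) than in CD11b+ (99.2 CPM), and Camk2d was lower in iCD8a (13.6 CPM) than in CD11b+ (75.9 CPM).

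Of 15 other anion channels and partners, Ano10 was lower in iCD8a than in both others (1.65 CPM in iCD8a, 11.1 CPM in ILC1, 14.3 CPM in CD11b+). Tmem206, the proton-activated chloride channel, was lower in iCD8a and in ILC1 than in CD11b+ (3.30 CPM in iCD8a, 3.86 CPM in ILC1, 33.2 CPM in CD11b+), and Clic4 was lower in ILC1 (138 CPM) than in CD11b+ (597 CPM). Ostm1, the partner of Clcn7, was not apart. Of 22 other cation channels, the endolysosomal Tpcn1 was at 13.4 CPM in iCD8a cells, 33.3 in ILC1 and 194 in CD11b+ cells, lower in iCD8a and in ILC1 than in CD11b+. Mcoln2, a lysosomal channel, was higher in iCD8a (31.5 CPM) than in CD11b+ (5.53 CPM), and the mechanosensitive Piezo1 was lower in iCD8a (21.1 CPM) than in CD11b+ (96.9 CPM). The ATP-gated P2rx1 was at 22.7 CPM in iCD8a, 3.23 in the ILC1 library and 17.3 in CD11b+, apart in both pairs with ILC1. P2rx7 was higher in ILC1 (168 CPM) than in CD11b+ (39.5 CPM), and P2rx4 was lower in ILC1 (15.0 CPM) than in CD11b+ (74.4 CPM).

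Of 14 sodium pump and potassium cotransport genes, Slc12a2, which loads cells with chloride, was lower in iCD8a than in both others (3.51 CPM in iCD8a, 14.5 CPM in ILC1, 22.4 CPM in CD11b+). Slc12a7, which moves potassium and chloride outward, was at 211 CPM in iCD8a, 145 in the ILC1 library and 49.3 in CD11b+ and was higher in iCD8a than in CD11b+. The cotransporter kinase Stk39 was at 88.8 CPM in iCD8a cells, 57.6 in ILC1 and 14.3 in CD11b+ cells and was higher in iCD8a and in ILC1 than in CD11b+.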

How the data were processed

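The authors aligned Illumina reads with TopHat and took counts per gene with HTSeq, according to the design text of the series. CASAVA 1.9 and TopHat2 stand in the submitters' processing notes. The deposited files hold raw counts per Ensembl gene ID, with no normalization by the authors. The labels give no genome build, annotation or strand setting, so a gene and an overlapping partner cannot be told apart. The 5 rows that name no gene stayed out of library sizes. As shares of all rows in iCD8a, ILC1 and CD11b+, alignments that were not unique were 26.9%, 34.5% and 30.5%, reads in no gene 9.31%, 11.0% and 8.56%, and ambiguous reads 1.08%, 0.889% and 0.922%. Of gene counts, 1.60%, 2.09% and 9.53% were on mitochondrially encoded genes.

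Symbols, biotypes and exon lengths came from GENCODE M21 by ID. It held 35449 of the 37224 IDs, and those without a match took 0.338% of gene counts in iCD8a, 0.484% in ILC1 and 0.430% in CD11b+. The TMM factors from edgeR 4.0.16 (R 4.3.3) were 1.09, 0.992 and 0.925 for these libraries. Ratios have 95% exact conditional (Clopper-Pearson) intervals, and a count of 0 was bounded at 3 counts per library, both for counting error only (Python 3.11.15, scipy 1.17.1, numpy 2.4.6, pandas 2.3.3, matplotlib 3.10.9). At these depths 5 CPM is 118 counts in iCD8a, 110.035 in ILC1 and 141 in CD11b+. Medians used a prior count of 0.5. Since no model can be fitted to 1 library per population, edgeR and DESeq2 1.42.0 served for scaling factors alone. The steps were tested on simulated counts.

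Named were every member with 5 CPM in any library, members with 1 CPM, and list genes that were apart or of high level. Some genes that this rule names are not reported here. The members, the fold rule and the 20 lists (232 symbols, 2 unmatched) were chosen with earlier results of these data known, so no list is independent evidence. Alternatives were other scalings, minimums, folds and prior counts, thinned libraries, and mitochondrial genes left out.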

Additional observations from a re-analysis of the deposited data

Results flagged for a closer look

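Antisense genes named after channel genes lie outside the member rule, and 2 of 4 had counts above the limit of 3 that a count of 0 allows. Kcnab3os had 13 counts in iCD8a, 2 in ILC1 and 4 in CD11b+. Kcnmb4os2 had 0 counts in iCD8a, 4 in ILC1 and 3 in CD11b+. All of these are under 1 CPM. The other 2, Kcnd3os and Kcnmb4os1, had 0 counts in each library. With no stated strand setting, these reads cannot be told apart from those of Kcnab3 and Kcnmb4.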

How the results depend on the processing

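The 3 pairs of the 39 members at 5 CPM were recomputed with CPM by total gene count, DESeq2 and upper-quartile scaling, in thinned libraries and with mitochondrial genes left out. Of these 585 ratios, 538 either kept a call or, having none, stayed uncalled and inside their counting interval. Another 36 stayed uncalled but left that interval, 7 lost the call, 4 gained it and 0 changed sign after a call. How far a ratio with a kept call moved was not counted. The 7 lost were those of Kcnk13 and Kcnn4, and the 4 gained were those of Orai1 and of Kcnk1, the last between iCD8a and CD11b+ in thinned libraries and with mitochondrial genes left out.

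CPM by total gene count moved the median log2 ratio of all genes by 0.14 (iCD8a over ILC1), 0.24 (iCD8a over CD11b+) and 0.10 (ILC1 over CD11b+). Member medians became -0.03 (iCD8a over ILC1), -0.56 (iCD8a over CD11b+) and -0.43 (ILC1 over CD11b+), and upper-quartile scaling gave -0.42 for the last pair. Without a CPM minimum all 3 were 0, since genes without counts then enter.

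Other minimums and folds changed more of the counts. Each is given with its share of the members at that minimum, beside the share of all protein-coding genes under the same setting. With a 10 CPM minimum, members enriched in CD11b+ numbered 6 of 30 (20%, beside 9% of all genes). Those higher in CD11b+ numbered 6 of 28 beside ILC1 (21.4%, beside 11.8%) and 9 of 28 beside iCD8a (32.1%, beside 12%), and those lower in iCD8a than in ILC1 numbered 4 of 21 (19%, beside 4.33%). With a 1 CPM minimum, those higher in CD11b+ than in ILC1 numbered 19 of 55 (34.5%, beside 15.6%). Those higher in iCD8a then numbered 6 of 43 beside ILC1 (14%, beside 4.56%) and 5 of 53 beside CD11b+ (9.43%, beside 6.4%). A fold of 8 left 1 member, Cacna1e, higher in iCD8a beside ILC1 (3.45% of 29, beside 2%), beside CD11b+ (2.86% of 35, beside 2.26%) and beside both (2.56% of 39, beside 0.709%). A fold of 2 gave 5 of 39 members enriched in ILC1 (12.8%, beside 3.84%) and 7 of 36 higher in ILC1 than in CD11b+ (19.4%, beside 13.4%). At that fold, members higher in iCD8a than in CD11b+ numbered 4 of 35 (11.4%), under the 13% of all genes. No paired analysis was possible because each population has 1 library.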
